A study of Gallus gallus with 71 samples.

Results

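Female and male broiler chicks were compared in the pre-optic anterior hypothalamic area (POAH), a region at the front of the hypothalamus. The comparison took every POAH library collected at hours 0 and 12 of a heat challenge. These were 16 of the 71 libraries of the series, 8 labelled Female and 8 labelled Male. The 8 POAH libraries of hour 2 stayed out because some sex labels there go against sex-limited genes, and they are described separately below. All chicks were Hubbard x Cobb-500 broilers and were sexed by their gonads. The challenge of 36°C was held on day 4 after hatch, and of the chicks compared only those of hour 12 were exposed to it. EHC (embryonic heat conditioning) chicks had been incubated at 39.5°C for 12 hours per day between embryonic days 7 and 16, and otherwise at 37.5°C. Control chicks had been kept at 37.5°C throughout incubation until transfer to the hatcher. Hour 0 was taken before the challenge and hour 12 at 12 hours of heat. There were 2 Female and 2 Male libraries in each of the 4 combinations of treatment and hour, so that sex was balanced over both. Each library was made from 1 punch biopsy, chosen for sequencing by RNA concentration. Total counts per library ran between 1580930 and 5048039 in the Female libraries, and between 3550599 and 8055385 in the Male libraries (two-sided exact permutation p = 0.199). At hour 0 the sexes overlapped in total counts (3270657 to 5048039 in Female, 3550599 to 4020187 in Male). At hour 12 every Male library (4233959 to 8055385) was deeper than every Female library (1580930 to 4201544).

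The POAH holds warm-sensitive neurons and takes part in the control of body temperature, and in many vertebrates it also serves sexual behaviour and carries receptors for sex steroids. In birds the female is the heterogametic sex, with a Z and a W chromosome, whereas males carry a pair of Z chromosomes. Genes of the W chromosome are thus transcribed in females alone, and the avian Z chromosome lacks the chromosome-wide compensation known from the mammalian X. The count table names genes by Ensembl identifier without a chromosome, so the genes below were not assigned to W, Z or autosomes unless a symbol could be matched. Symbols were available for 93 genes. For that reason 0 of the 7 listed genes of sex steroid signalling, of the 21 listed preoptic neuropeptides and receptors, of the 8 listed heat shock proteins and of the 12 listed genes of sex determination could be read, and the POAH label could not be checked against neuronal or glial markers.

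Between Female and Male libraries, 604 of 20363 genes tested (2.97%) were called, at a threshold of 0.1 for the Benjamini-Hochberg adjusted p of edgeR's quasi-likelihood test with treatment and hour as covariates. Of these, 254 (1.25%) were higher and 350 (1.72%) were lower in Female libraries. The log2 fold change of Female over Male (log2FC) of the higher genes was spread over a wide range, with a median of 2.37 and an interquartile range of 1.14 to 5.75. The lower genes sat closer together, with a median of -0.82 and an interquartile range of -1.07 to -0.62, which is a median ratio of Female to Male of 0.566 (interquartile range 0.477 to 0.649). A log2FC over 3 was found for 107 of the higher genes, and one of -2 or below for 15 of the lower genes. The median over all genes tested was 0.002. DESeq2 called 851 genes (4.18%), of which 401 (1.97%) were higher and 450 (2.21%) lower, and 561 genes were called by both tools.

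**Figure D1:**
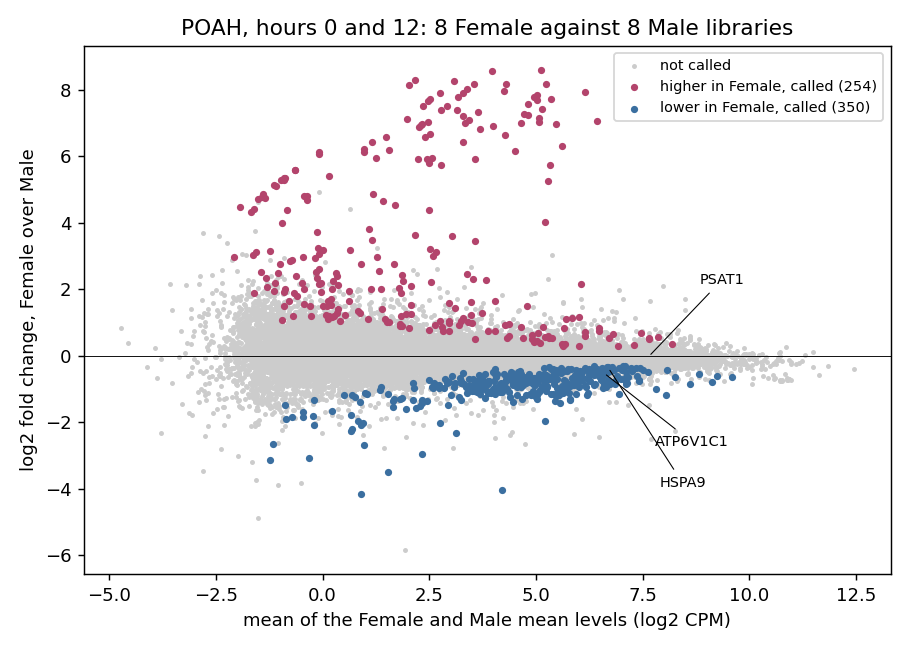
Log2 fold change of Female over Male POAH libraries (vertical axis) against the log2 of the mean CPM of both sexes (horizontal axis), 1 point per gene tested. The 254 genes called higher in Female reach a log2FC over 8, whereas the 350 called lower have an interquartile range of -1.07 to -0.62.

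The 8 Female and 8 Male libraries did not overlap for 103 genes that were higher in Female (0.506% of all genes tested) and for 0.732% of all genes tested among those that were lower. Of the called genes, 39.4% of those higher and 42.6% of those lower in Female had no overlap of the sexes. Leaving out each of the 16 libraries in turn, 396 of the 604 genes (1.94% of all tested) were called in every fit, and no called gene changed its direction in any of them. Among the lower genes these were 249 of 350, with a median log2FC of -0.84, and among the higher genes with a log2FC over 3 they were 103 of 107. The higher genes with smaller changes were the least stable, since 29.9% of those with a log2FC of at most 3 were called in every fit. The count of called genes was 440 to 939 when 1 library was left out, with the highest count without Sample_175, a Male EHC library of hour 12 and the most deeply sequenced of the 16. The other 15 counts stayed within 1.5 times of 604. The count of higher genes moved more, with 170 to 454 over these fits, 454 without Sample_175 and 400 without Sample_160, and that of lower genes was 270 to 485.

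A set of 98 genes called higher in Female had a log2FC over 3 and a mean level under 1 CPM (counts scaled by library size) in Male libraries. They are termed female-limited genes here, and DESeq2 called 88 of them. Their mean level in Female libraries ran between 0.52 and 141 CPM with a median of 9.94 CPM, whereas the median of their mean levels in Male libraries was 0.0493 CPM. Because these levels defined the set, they are given as a description. Not a single count was found in any of the 8 Male libraries for 19 of the 98 genes. The gene with the smallest p of all, ENSGALG00010012906, had 49.8 CPM in the lowest, a median of 73.3 and 104 CPM in the highest Female library, against 0 CPM in the lowest, a median of 0.212 and 0.509 CPM in the highest Male library. The sexes did not overlap, and its log2FC was 8.18 ± 0.31 (SE, n = 8 and 8, adjusted p = 9.21e-16, edgeR). A second gene, ENSGALG00010013565, had 6.18 CPM in the lowest, a median of 9.45 and 11.4 CPM in the highest Female library, and no count in the Male libraries (adjusted p = 2.57e-06, edgeR). Its mean was 9.04 CPM in Female libraries, against an upper limit of 0.0786 CPM that 3 counts over the 8 Male libraries together would give. Both genes gave p = 0.00154 in the two-sided exact permutation test, the smallest value that the 1296 permutations of sex within treatment and hour can give. Both were chosen from these same libraries and have the sexes apart, which fixes this p in advance. It is therefore a description and no further support.

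Summed over the 98 genes, the female-limited level separated all 16 libraries. The genes were chosen for this difference in the same 16 libraries, so the separation was built in and is a description. The Female libraries had 1610 CPM in the lowest, a median of 1850 and 1990 CPM in the highest, against 5.72 CPM in the lowest, a median of 8.61 and 27.8 CPM in the highest Male library. The highest Male library was again Sample_175, in which 64 of the 98 genes had at least 1 count, whereas 13 to 46 did in the other 7 Male libraries. Between 84 and 97 of the genes were detected in the Female libraries, with the lowest number in Sample_145, the shallowest library of the 16.

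Hour 2 gave a further 8 POAH libraries from other chicks, which did not enter the fold changes and Male means that defined the female-limited genes. They were left out because some sex labels there go against sex-limited genes. The mismatches below therefore restate that reason and are not a new result. In 6 of these libraries the sum followed the label, with 1620, 1650 and 2060 CPM in 3 libraries labelled Female, and 5.89, 6.1 and 10.7 CPM in 3 labelled Male. Sample_67, labelled Male (EHC), had 2370 CPM, and Sample_70, labelled Female (Control), had 24.4 CPM. These 2 libraries thus lay on the side opposite to their label. So did neighbouring library numbers of the other nuclei at hour 2, with 2210 CPM in Sample_68 (nCPa) and 1830 CPM in Sample_69 (PVN), both labelled Male, and 21.1 CPM in Sample_72 (PVN), labelled Female. Sample_71 (nCPa), labelled Female, had 1650 CPM and followed its label. The same held for the genes lower in Female. Over the 225 of them with a log2FC of -0.5 or below that were called in all 16 fits, the mean log2 CPM relative to the Male mean at hours 0 and 12 was between -0.79 and -0.63 in the 3 hour 2 libraries labelled Female other than Sample_70, and between -0.08 and 0.02 in the 3 labelled Male other than Sample_67. It was -0.85 in Sample_67 and -0.09 in Sample_70. With hour 2 added as labelled, 2195 of 20363 genes tested were called, 525 of them among the 604. With hour 2 added without these 2 libraries 1352 were called, 554 of them among the 604, an alternative chosen after seeing the data. Both fits had more libraries than the 16 compared, so their counts cannot be set directly beside 604.

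**Figure D2:**
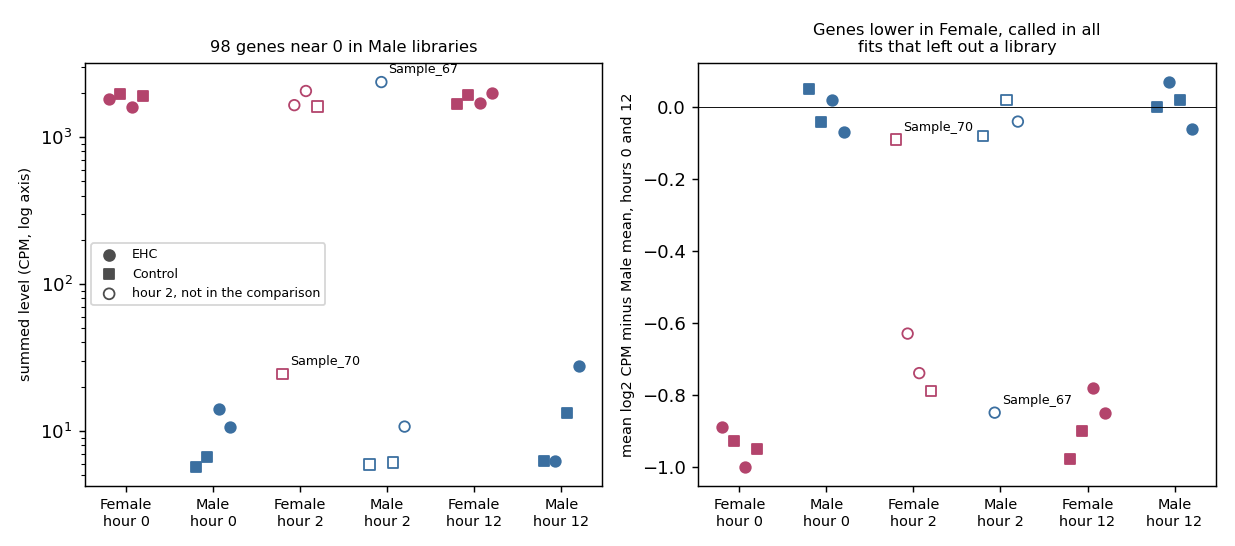
Every POAH library by labelled sex and hour, with the summed level of the 98 female-limited genes in CPM on a log axis (left) and the mean log2 CPM of the 225 genes lower in Female relative to the Male mean at hours 0 and 12 (right), circles for EHC and squares for Control. Open symbols are hour 2 libraries, of which Sample_67 (2370 CPM, -0.85) and Sample_70 (24.4 CPM, -0.09) lie with the other sex.

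Apart from the female-limited genes, 156 genes were higher in Female libraries, with a median log2FC of 1.29 and an interquartile range of 0.86 to 2.18. They included 25 genes without overlap of the sexes, and 53 were called in all fits that left out a library. The 53 had a median log2FC of 2.23. The other 103 had a median of 1.11, and the sexes overlapped in all of them except 1. No gene of this class had a symbol.

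The genes lower in Female libraries had a median of 21.3 CPM over their mean levels in Female libraries against 38.4 CPM in Male libraries, and all of them had counts in both sexes. The 15 genes with a log2FC of -2 or below stood at lower levels, with a median of 0.584 CPM in Female against 3.12 CPM in Male libraries, and the sexes were apart for 1 of them. Of all 350, the gene with the smallest p, ENSGALG00010010990, had 27.6 CPM in the lowest, a median of 31 and 37 CPM in the highest Female library, against 70.7 CPM in the lowest, a median of 78.6 and 88.1 CPM in the highest Male library. Every Female library lay below every Male library by a wide gap. The log2FC was -1.33 ± 0.09 (SE, n = 8 and 8, adjusted p = 3.17e-08, edgeR), a ratio of 0.398, with an exact permutation p of 0.00154. With the sexes apart, that permutation p could take no other value. The next gene, ENSGALG00010010254, had 25.8 ± 2.62 CPM in Female and 68.9 ± 11 CPM in Male libraries (SD, n = 8 each), without overlap, and a log2FC of -1.42 ± 0.11 (SE, adjusted p = 2.6e-07, edgeR). Both changes were close to these values at each hour and in each treatment, between -1.27 and -1.39 and between -1.23 and -1.6 for the 2 genes at the separate hours.

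Genes with a symbol moved little. Of the 93, 4 were called (4.3%, against 2.97% of all genes tested), all of them lower in Female libraries, and 67 (72%) had a log2FC below 0, against 49.7% of all genes tested. These genes come from the study's own tables of treatment and time, so they are not a sample of the transcriptome. HSPA9 (chromosome 13, 2405305 to 2426690, GRCg7b), the mitochondrial chaperone of the Hsp70 family that pulls imported proteins into the matrix, had 79.3 CPM in the lowest, a median of 87.3 and 116.9 CPM in the highest Female library, against 97.5 CPM in the lowest, a median of 114 and 140 CPM in the highest Male library. It was below the Male median in 7 of 8 Female libraries, the exception being Sample_160. The log2FC was -0.35 ± 0.09 (SE, n = 8 and 8, adjusted p = 0.0713, edgeR, exact permutation p = 0.00309). HSPA9 was named because it was called in these same libraries, so its permutation p is a description and no further support. The 6 genes of the list of mitochondrial upkeep, to which HSPA9 belongs, were all below 0 with a median of -0.16, and HSPA9 was the only one called.

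Subunits of the vacuolar proton pump, which acidifies lysosomes and secretory vesicles, accounted for a further 2 calls. ATP6V1C1 (chromosome 2, 128873605 to 128895131), subunit C of the cytosolic part of the pump, had 51.9 CPM in the lowest, a median of 77.4 and 108 CPM in the highest Female library, against 81.8 CPM in the lowest, a median of 114.6 and 141.3 CPM in the highest Male library. All 8 Female libraries lay below the Male median, with some overlap of the sexes. The log2FC was -0.51 ± 0.14 (SE, adjusted p = 0.0746, edgeR, exact permutation p = 0.0108). ATP6V1G1 (chromosome 17, 3181032 to 3183872), subunit G of the stalk that links both parts of the pump, averaged 108 ± 17.2 CPM in Female and 139 ± 15 CPM in Male libraries (SD, n = 8 each). Its log2FC was -0.37 ± 0.10 (SE, adjusted p = 0.075, edgeR, exact permutation p = 0.00463). The other subunits of the list were not called. ATP6V1H, a regulatory subunit, had a log2FC of -0.36 ± 0.16 (SE, adjusted p = 0.288, edgeR). All 4 members of the list were below 0, with a median of -0.37.

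The last of these genes was NDUFA9 (chromosome 1, 73788118 to 73808496), a nuclear-encoded accessory subunit of respiratory complex I. It averaged 73.3 ± 6.22 CPM in Female and 90.8 ± 8.21 CPM in Male libraries (SD, n = 8 each), and all 8 Female libraries were below the Male median of 90.6 CPM. The log2FC was -0.31 ± 0.09 (SE, adjusted p = 0.0783, edgeR, exact permutation p = 0.00309). The permutation p-values of all 4 called genes with a symbol come from the libraries in which they were called, and are no further support. Among the 8 nuclear genes of complex I and its assembly, all were below 0 with a median of -0.33, and NDUFA9 was the only one called. NDUFB9, another accessory subunit, had a log2FC of -0.49 ± 0.18 (SE, adjusted p = 0.218, edgeR). The 4 calls were not stable. With no filter on low counts the adjusted p was 0.122 for HSPA9, 0.106 for ATP6V1G1 and 0.145 for NDUFA9, and with the size factors of DESeq2 it was 0.104 for ATP6V1G1 and 0.106 for NDUFA9 (edgeR). HSPA9 was still called in 7, ATP6V1C1 in 6, ATP6V1G1 in 7 and NDUFA9 in 8 of the 16 fits that left out a library, and 7 libraries (Sample_13, Sample_16, Sample_22, Sample_28, Sample_43, Sample_142 and Sample_157) each ended all 4 calls. Adjusted p-values over the 16 fits ran between 0.00938 and 0.164 for HSPA9, with highest values of 0.166 for ATP6V1C1, 0.172 for ATP6V1G1 and 0.18 for NDUFA9 (edgeR). Over the same fits the log2FC ran between -0.42 and -0.31 for HSPA9 and between -0.59 and -0.44 for ATP6V1C1. It ran between -0.43 and -0.33 for ATP6V1G1 and between -0.34 and -0.27 for NDUFA9. With all 16 libraries the adjusted p of DESeq2 was 0.0197 for HSPA9, 0.0416 for ATP6V1C1, 0.0295 for ATP6V1G1 and 0.0279 for NDUFA9.

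**Figure D3:**
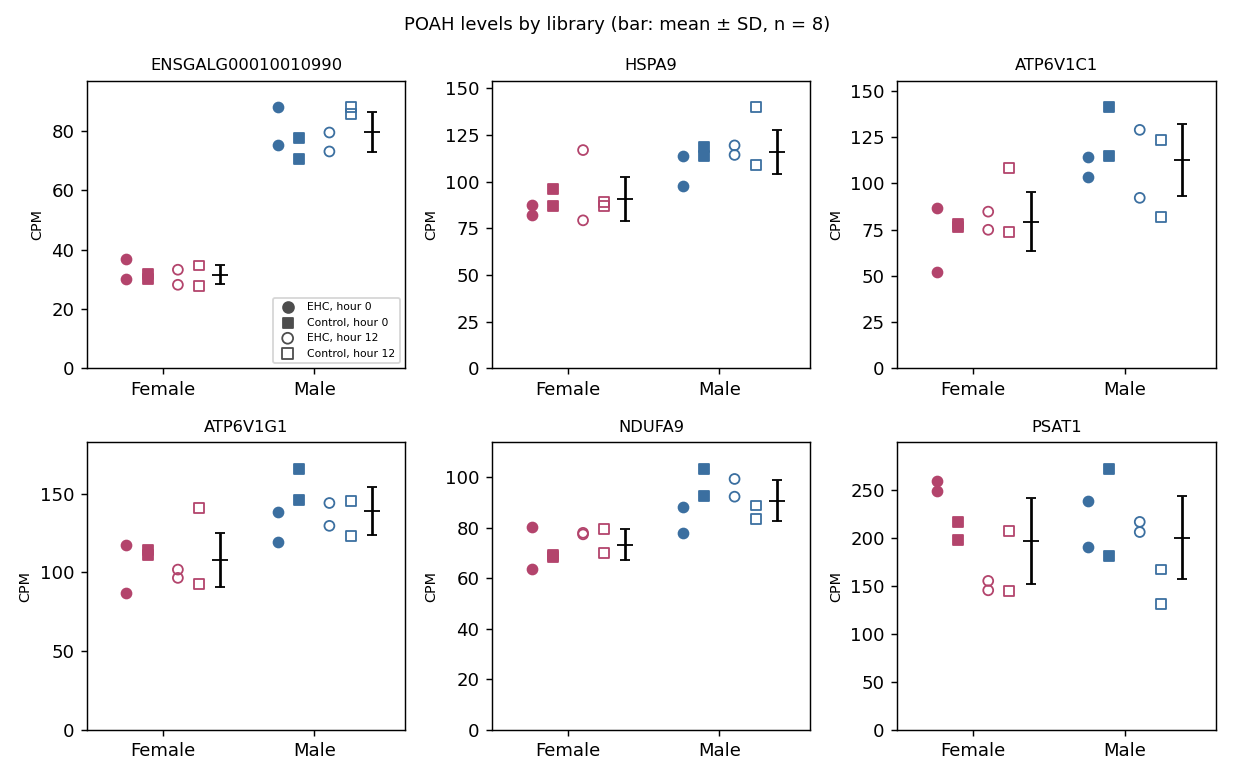
CPM of 6 genes in the 8 Female and 8 Male POAH libraries, with symbols for treatment and hour and a bar for the mean ± SD. The sexes are apart for ENSGALG00010010990 (27.6 to 37 CPM in Female, 70.7 to 88.1 CPM in Male), overlap for HSPA9, ATP6V1C1, ATP6V1G1 and NDUFA9, and cover the same range for PSAT1.

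The mitochondrial genome encodes core subunits of the respiratory chain and of ATP synthase, and 11 of its mRNAs could be read. All 11 had log2FCs below 0 and 0 were called (edgeR). An unadjusted p under 0.05 was found for 7 of the 11, against 15% of all genes tested (3062 genes). These mRNAs moved in part together, so they are not 11 separate observations. Among Female libraries ND1, ND4, CYTB and ATP6 were each highest in Sample_160 and lowest in Sample_148. ND6 was also lowest in Sample_148, but highest in Sample_145. The 6 complex I subunits had a median of -0.52 and the 5 subunits of the other complexes a median of -0.35. ND6, a subunit of complex I, had 41 CPM in the lowest, a median of 89.7 and 162 CPM in the highest Female library, against 87.2 CPM in the lowest, a median of 142.4 and 225 CPM in the highest Male library. Its log2FC was -0.67 ± 0.23 (SE, adjusted p = 0.175, edgeR), with the lowest values in both Female EHC libraries of hour 12. ND6 lies on the other strand of the mitochondrial genome than most of its genes, and whether strand was used in counting is not given in the sources used here. With the treatment-by-hour combination as a term (the replicate letter of the labels as a block), the adjusted p of ND6 was 0.0431 (edgeR). CYTB, the cytochrome b of complex III, had a log2FC of -0.54 ± 0.21 (SE, adjusted p = 0.255, edgeR). Summed, the 11 mRNAs had 4972 to 14070 CPM in Female libraries and 8848 to 12610 CPM in Male libraries, so that the spread was wider among Female libraries. A further fit, added after seeing the data, had the log2 share of these 11 mRNAs in the raw counts of each library as a covariate. It called 448 genes, 303 of them lower in Female, and 382 were among the 604. The adjusted p was then 0.38 for HSPA9, 0.105 for ATP6V1C1, 0.139 for ATP6V1G1 and 0.237 for NDUFA9 (edgeR). Their log2FCs in that fit were -0.23, -0.58, -0.41 and -0.3 in this order, against -0.35, -0.51, -0.37 and -0.31 without the covariate.

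PSAT1, an enzyme of serine synthesis, was the only gene with a symbol that could be placed on the Z chromosome (38582875 to 38598178, GRCg7b). It had 144.8 CPM in the lowest, a median of 202 and 260 CPM in the highest Female library, against 131 CPM in the lowest, a median of 198 and 273 CPM in the highest Male library. The sexes covered the same range. The log2FC was -0.04 with a 95% interval of -0.31 to 0.24 (adjusted p = 0.924, edgeR), and its sign turned in 3 of the 16 fits that left out a library (-0.11 to 0.03). The interval does not reach the median of the genes called lower in Female, -0.82. Those genes were selected for their difference in these same libraries, and most of them could not be placed on a chromosome. The contrast with 1 gene thus tells nothing about Z-linked genes as a class.

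Extracellular matrix and secreted proteins were below 0 in Female libraries for 7 of 7 members, with a median log2FC of -0.65, and 0 were called (edgeR), with an unadjusted p under 0.05 for 2 of the 7, against 15% of all genes tested. MFAP5, a protein of elastic microfibrils, had 16.7 CPM in the lowest, a median of 24.3 and 43.7 CPM in the highest Female library, against 23.1 CPM in the lowest, a median of 40.8 and 93.4 CPM in the highest Male library. Its log2FC was -0.70 ± 0.23 (SE, adjusted p = 0.159, edgeR), and was 0.13 with hour 2 added and 0.06 with hour 2 added without Sample_67 and Sample_70. At hour 2, Sample_79 (Female, EHC) had 1380 CPM of connective tissue markers. TIMP2, an inhibitor of metalloproteinases, had a log2FC of -0.41 ± 0.15 (SE, adjusted p = 0.196, edgeR). Markers of connective tissue that could be read were MGP, SERPINF1 and MFAP5 (3 of 6 listed). All 3 also belong to the list of extracellular matrix and secreted proteins above, so their sum is not a separate measure. It was 23.5 to 84.1 CPM in Female and 38.4 to 266 CPM in Male libraries, with the highest sum in Sample_172. The same library had the highest level of GFI1B, an erythroid factor and the only erythrocyte marker that could be read (1 of 3 listed), which ran between 0 and 8.02 CPM in Female and between 0.543 and 16.2 CPM in Male libraries. The part of such tissue in these differences was not tested, and in bulk tissue fewer cells of a type and less RNA per cell cannot be told apart. Without Sample_172, 597 of all genes tested were called, a count that does not show how this list changed. Over the 16 fits that left out a library, the log2FC ran between -0.91 and -0.36 for SERPINF1. It ran between -0.48 and -0.31 for TIMP2 and between -0.86 and -0.56 for MFAP5.

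The medians of the remaining lists ran between -0.42 and 0.15. The secretory pathway had 6 of 6 members below 0 with a median of -0.42, among them YKT6, a SNARE protein of vesicle fusion, at -0.43 ± 0.17 (SE, adjusted p = 0.262, edgeR). Genes of ubiquitin and the proteasome had a median of -0.25, with PSMA2, a core proteasome subunit, at -0.25 ± 0.11 (SE, adjusted p = 0.313, edgeR). Factors of RNA, splicing and translation had a median of 0.01, signalling genes a median of 0.02 and actin regulators a median of 0. The 3 genes of nuclear export were above 0, with NUP214, a nuclear pore protein, at 0.16 ± 0.09 (SE, adjusted p = 0.405, edgeR). VIPR1, a receptor of vasoactive intestinal peptide, was at 0.22 ± 0.16 (SE, adjusted p = 0.552, edgeR). None of the genes in these lists was called by edgeR, and 4 had an unadjusted p under 0.05, against 15% of all genes tested.

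**Figure D4:**
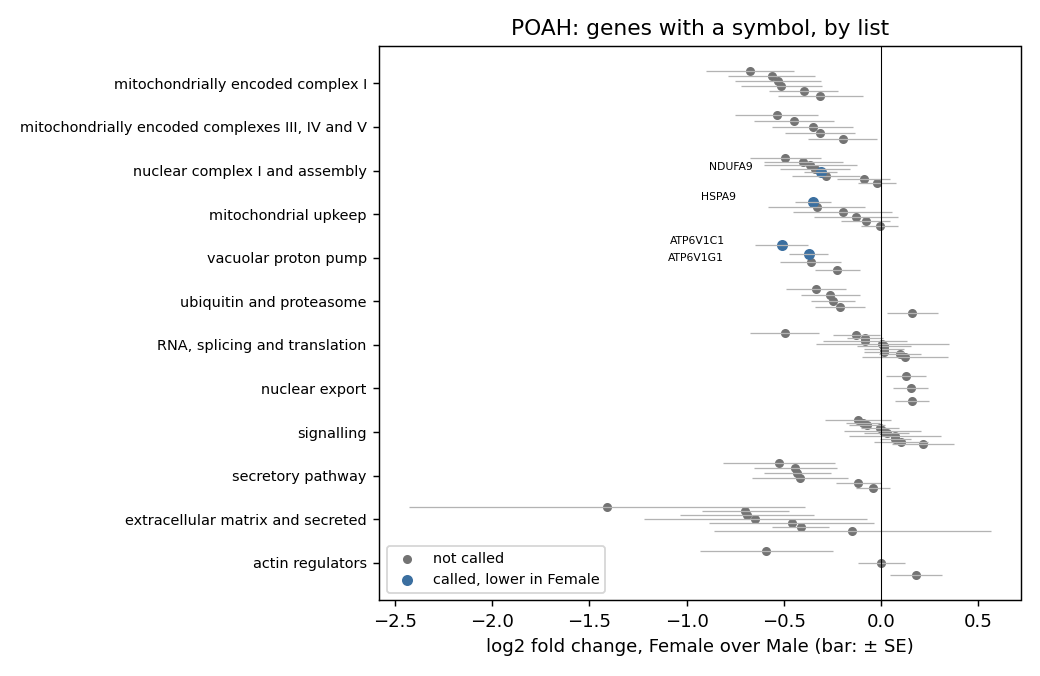
Log2 fold change of Female over Male POAH libraries (± SE) for each gene with a symbol that belongs to a list, 1 row of points per list. The 4 called genes, in blue, lie between -0.51 and -0.31, and list medians run between -0.65 (extracellular matrix and secreted) and 0.15 (nuclear export).

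Hours 0 and 12 came from different chicks and were also fitted separately, with 4 Female and 4 Male libraries each. At hour 12 every Male library was deeper than every Female one, so sex and depth cannot be told apart in that fit. At hour 0, 564 genes differed (2.77%), of which 251 (1.23%) were higher and 313 (1.54%) lower in Female, and at hour 12, 164 genes differed (0.805%), with 99 (0.486%) higher and 65 (0.319%) lower in Female. Of the genes called at hour 12, 136 (82.9%) were called in the same direction at hour 0, which is 24.1% of the hour 0 genes. All 82 female-limited genes called at hour 0 were higher in Female at hour 12, and 72 of them were called there. Since the female-limited set was chosen on both hours together, this agreement is in part built in. The 169 other genes higher in Female at hour 0 carried over less, with a median log2FC of 0.38 at hour 12 and 17 calls. Of the 313 genes lower at hour 0, 251 (80.2%) were also below 0 at hour 12, where 50.1% of all genes tested were, and 47 were called. They had a median of -0.99 at hour 0, where they were chosen, and of -0.51 at hour 12. In the reverse direction, 63 of the 65 genes lower at hour 12 were below 0 at hour 0.

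**Figure D5:**
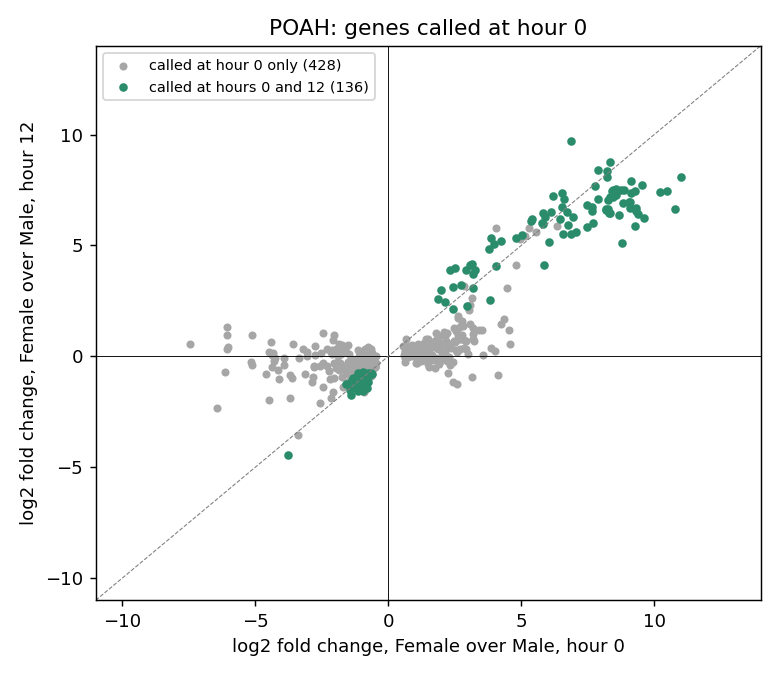
Log2 fold change of Female over Male at hour 0 (horizontal axis) and hour 12 (vertical axis) for the 564 genes called at hour 0, with a dashed line at equal values. The 136 genes called at both hours, in green, form a cluster of large positive changes and one near -1, and the other 428 were not called at hour 12.

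The share of genes called at hour 0 depended on single libraries. It was 15% without Sample_10 (Female, EHC), 0.854% without Sample_13, 0.992% without Sample_40, 1.07% without Sample_25, 1.14% without Sample_28 and 1.29% without Sample_43. At hour 12 it was 0.486% to 0.643% when 1 library was left out, with 0.486%, 0.501%, 0.506% and 0.53% without Sample_145, Sample_142, Sample_157 and Sample_160. The loss at hour 12 was in the genes lower in Female, of which 12 to 37 were called, whereas 87 to 94 higher genes were. The difference between hours was tested as an interaction of sex and hour, in which 0 of 20363 genes passed (0%, edgeR), while 1746 had an unadjusted p under 0.05 and DESeq2 called 6. Among the 254 higher genes 18 (7.09%) and among the 350 lower genes 30 (8.57%) had an unadjusted p under 0.05 for this interaction, against 8.57% of all genes tested. CAPRIN2, an RNA-binding protein, had a log2FC of -1.03 at hour 0 (adjusted p = 0.0485, edgeR) and of 0.03 at hour 12 (adjusted p = 0.983, edgeR), and its interaction had an adjusted p of 0.571 (edgeR).

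In EHC chicks 130 genes differed between the sexes (0.638%), of which 87 (0.427%) were higher and 43 (0.211%) lower in Female. In Control chicks 332 did (1.63%), of which 184 (0.904%) were higher and the others (0.727%) lower. Of the EHC genes, 90% were called in the same direction in Control chicks, which is 35.2% of the Control genes. The 43 genes lower in Female EHC chicks were all below 0 in Control chicks, and their median was -1.01 in both treatments. Conversely, 98.6% of the genes lower in Control chicks were below 0 in EHC chicks, where 48.1% of all genes tested were, with a median of -0.79 in EHC and -0.97 in Control chicks. The interaction of sex and treatment called 0 genes (0%, edgeR), and DESeq2 called 0. An unadjusted p under 0.05 was found for 541 genes, which is 2.66% of all genes tested. The larger count in Control chicks was thus not shown to be a difference between treatments. The share called was 0.422% without Sample_157 in EHC chicks. Of the genes lower in Female EHC chicks, 6 to 31 were called when 1 library was left out, whereas 77 to 86 higher genes were. The lower count stood at 31 without Sample_148 and moved by over 1.5 times without each of the other 7 libraries (Sample_10, Sample_25, Sample_28, Sample_43, Sample_157, Sample_160 and Sample_175). In Control chicks the share called was 0.727% without Sample_142, 0.791% without Sample_13, 0.82% without Sample_16, 0.918% without Sample_124 and 0.928% without Sample_40. DESeq2 called 213 genes in EHC and 650 in Control chicks.

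The same comparison was made in the nCPa (nucleus of the hippocampal commissure, 16 libraries) and the PVN (paraventricular nucleus, 15 libraries), which the study took from the same chicks, so that the nuclei are not independent samples of the sexes. In the nCPa 541 genes differed (2.66%), 208 (1.02%) higher and 333 (1.64%) lower in Female, and in the PVN 1697 (8.33%), 716 (3.52%) higher and 981 (4.82%) lower. Of the 350 genes lower in Female POAH libraries, 243 (69.4%) were also called lower in the nCPa and 280 (80%) in the PVN. Their median log2FC was -0.82 in the POAH, -0.79 in the nCPa and -0.79 in the PVN. Of the 98 female-limited genes, 90 were called in the nCPa and 92 in the PVN. Of the other 156 genes higher in Female, 28 were called in the nCPa and 45 in the PVN, and their median was 1.29 in the POAH, where it chose them, 0.74 in the nCPa and 0.58 in the PVN. In all, 112 of the higher and 54 of the lower genes were called in the POAH alone, and 24 and 16 of these were called in every fit that left out a POAH library.

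Whether a difference was particular to the POAH was tested across nuclei. The interaction of sex and nucleus called 0 genes for the POAH against the nCPa (0%, edgeR), and DESeq2 called 0. There 454 genes (2.23% of all tested) had an unadjusted p under 0.05. Against the PVN the interaction called 0 genes (0%, edgeR), 1267 (6.22%) had an unadjusted p under 0.05, and DESeq2 called 1. Of the 254 genes higher in Female POAH libraries, 20 (7.87%) had such a p against the nCPa and 42 (16.5%) against the PVN. Of the 350 lower genes, 8 (2.29%) and 24 (6.86%) did. All were chosen by their difference in the POAH, so these shares are in part built in. The interaction fits had no term for the chick, so they took nuclei of the same chick as independent libraries. With a block for the chick, inferred from library numbers since the labels do not name it, 0 genes were called against the nCPa. Against the PVN that fit called 29, of which 13 had a positive and 16 a negative interaction. HSPA9 had a log2FC of -0.35 in the POAH, -0.23 in the nCPa (adjusted p = 0.532, edgeR) and -0.13 in the PVN (adjusted p = 0.598, edgeR). ND6 was at -0.67 in the POAH, 0.21 in the nCPa and 0.27 in the PVN, none of them called. The vacuolar pump subunit ATP6V1C1 was at -0.51 in the POAH, -0.45 in the nCPa (adjusted p = 0.441, edgeR) and -0.32 in the PVN (adjusted p = 0.121, edgeR). It was called in the POAH alone, but its interactions with nucleus were small (-0.07 against the nCPa, -0.18 against the PVN) and not called. ATP6V1G1 was called in neither other nucleus. Conversely, ATP6V1H (-0.38, adjusted p = 0.0745, edgeR) and MFAP5 (-0.56, adjusted p = 0.0486, edgeR) were not called in the POAH but were in the PVN. ENSGALG00010010990 was at -1.33 in the POAH, -1.25 in the nCPa and -1.23 in the PVN, and was called in each. The share of genes called was 10.3% in the nCPa without Sample_146, and 4.88%, 5.23% and 5.3% in the PVN without Sample_144, Sample_15 and Sample_30.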

How the data were processed

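Total RNA of punches from single chicks was sequenced as stranded libraries after removal of ribosomal RNA. The authors trimmed reads with Trimmomatic 0.39, aligned them to GRCg7b with HISAT2 2.2.1, kept reads with 1 match (SAMtools 1.10), dropped duplicates (biobambam2 2.0.95) and assigned read pairs to genes of Ensembl release 110 by featureCounts 2.0.1. The deposited values are raw counts of read pairs for 30108 genes. Genes over 1 CPM in at least 4 of the 71 libraries were kept (20363), scaled by TMM and fitted with edgeR 4.0.16 (R 4.3.3), with treatment and hour as covariates and an adjusted p of at most 0.1. SE is the absolute log2 fold change over the square root of F, and intervals use 12 residual degrees of freedom. Single genes had an exact permutation test on log2 CPM (prior count of 2). Levels are CPM scaled over the 16 libraries, and sums over gene sets are scaled over all 71. DESeq2 1.42.0, other filters, scalings and terms, and fits without each library were the alternatives. The fitting scripts were tested on simulated data.

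Each group had 8 libraries from separate chicks, as the study describes, and replicate pairs differed beyond sampling noise (mean chi-square per gene of 6.99 to 39.9). The labels give no sequencing batch. Members and lists were chosen with earlier results of these data known. Named genes were the called genes with a symbol (up to 15 in each direction), PSAT1 as a Z-linked gene, up to 3 uncalled members of each list, and at most 2 identifiers without symbol in each direction, those with the smallest adjusted p and, for 1 higher gene, the smallest Male level. Symbols were paired with identifiers by the study's tables (93 of 116), and 92 of the 93 had a RefSeq position by symbol.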

Additional observations from a re-analysis of the deposited data

Results flagged for a closer look

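In 62 sets of 8 values, 1 per sex and measure, 15 had a library far from the other 7 by Dixon's ratio. Chance gives about 1 in 20 for independent sets of normally distributed values. These sets share libraries and genes, such as SERPINF1 and the sum that contains it, so the 15 are not separate events and that rate is no fair yardstick. Sample_160 (Female, EHC, hour 12) had the highest Female level of HSPA9 (116.9 CPM, next 96 CPM), ND4 (632 CPM, next 365 CPM), ATP6 (829 CPM, next 489 CPM) and NUP214 (143.5 CPM, next 125.1 CPM). Sample_148 (Female, EHC, hour 12) had the lowest Female level of NDUFB9 (12.6 CPM, next 20.9 CPM) and the highest of SERPINF1 (34.1 CPM, next 19.5 CPM). Sample_28 (Female, EHC, hour 0) had the lowest Female level of ATP6V1H (42 CPM, next 71.4 CPM). Sample_172 (Male, Control, hour 12) had the highest Male level of MFAP5 (93.4 CPM, next 53.8 CPM), TIMP2 (297 CPM, next 189 CPM), SERPINF1 (82.9 CPM, next 27.4 CPM) and NDUFS5 (30.8 CPM, next 21.5 CPM), and the highest Male sum of extracellular matrix and secreted genes (579 CPM, next 274 CPM). Sample_43 (Male, EHC, hour 0) had the highest Male level of CAPRIN2 (50.05 CPM, next 32.6 CPM) and of VIPR1 (32.8 CPM, next 20.2 CPM). Sample_175 (Male, EHC, hour 12) had the highest Male sum of the female-limited genes (27.8 CPM, next 14.1 CPM). None of these libraries was left out of the comparison.

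At hour 2, outside the comparison, the female-limited genes summed to 2370 CPM in Sample_67, labelled Male, and to 24.4 CPM in Sample_70, labelled Female, each on the side of the other sex. Such disagreement with the labels was the reason to leave hour 2 out, so it is not a new observation.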

How the results depend on the processing

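Against 604 called genes, counts were 2195 with hour 2 added as labelled and 1352 with hour 2 added without Sample_67 and Sample_70. Both of these fits had more libraries than the 16 compared. The count was 259 when edgeR and DESeq2 both had to call a gene with an absolute log2 fold change over 1. All other alternatives of the model stayed within 1.5 times, among them DESeq2 with 851 (401 higher, 450 lower), no filter with 529, no treatment and hour term with 805 and the replicate letter as a replicate block with 591. DESeq2 called 1197 genes at hour 0, 213 in EHC and 650 in Control chicks. It called 6 genes for sex by hour and 1 for sex by nucleus against the PVN, where a block for the chick, inferred from library numbers, called 29. Leaving out each library in turn, the share of genes called was 2.16% to 4.61% (440 to 939 genes), against 2.97% with all libraries. It was 0.854% to 15% at hour 0, 0.486% to 0.643% at hour 12, 0.422% to 0.57% in EHC chicks, 0.727% to 2.03% in Control chicks, 2% to 10.3% in the nCPa and 4.88% to 12.1% in the PVN. The interactions called 0 to 1 genes for sex by hour (1 without Sample_148) and for sex by nucleus against the PVN (1 each without Sample_45, Sample_60 and Sample_147). The log2 fold change of MFAP5 was 0.13 and 0.06, and that of SERPINF1 0.51 and 0.3, with hour 2 added and with hour 2 added without Sample_67 and Sample_70. PSAT1 ran between -0.11 and 0.03 over the fits without 1 library. For the other named genes no direction changed. The cause of these shifts was not tested. At the lowest levels the fold changes rest on few counts, as for female-limited genes, which had between 0 and a few counts in Male libraries. The part of depth was not tested. Single hours and treatments rest on 4 against 4 libraries.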
